A study of Homo sapiens with 6 samples.

Results

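The regions described are the peaks of RNA polymerase I (Pol I) and RNA polymerase II (Pol II) that lie near the ends of the autosomes in LNCaP cells, an established human prostate cancer line, with separate attention to the distal ends of 4q and 10q. A peak was a member when it started within 1 Mb of the last listed peak of its chromosome, or ended within the first 1 Mb of chromosome 1 to 12 or 16 to 20. The short arms of the acrocentric chromosomes therefore did not enter. The rule found 2477 of the 84817 listed peaks, in 39 ends, of which 22 were right (q) ends and 17 were left (p) ends. A further 80314 autosomal peaks lay elsewhere and are called the rest of the autosomes. The groups were cells exposed to 1 µM BMH-21 for 6 h and cells given the solvent DMSO, and each was profiled by chromatin immunoprecipitation with sequencing (ChIP-seq). The C-1 antibody was used against Pol I, and the 4H8 antibody against the serine 5-phosphorylated form of Pol II, so "Pol II" below means that form.

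Each antibody and treatment had 1 library, so differences between treatments carry no replicate error and no p-value. The intervals in square brackets are exact Clopper-Pearson 95% intervals over peaks. They cover counting error only, and neighbouring peaks are not independent. Read depth is unknown because the lists hold peaks and no read counts, and the 2 input samples were not analysed here. Every list starts at a deposited score of 50, so an empty stretch may still hold polymerase below that score. The scale of the score may differ between libraries, and in the values below scores are compared only within a list. The 2 lists of an antibody share no position at the ends: 0 of 74 Pol I peaks listed after BMH-21 overlapped a DMSO Pol I peak, and 0 of 384 Pol II peaks listed after BMH-21 overlapped a DMSO Pol II peak. On the rest of the autosomes the counts were 0 of 1773 and 0 of 10837. A ratio of peak numbers is therefore not a measure of peaks kept. An empty stretch may also hold positions that were left out of both lists of an antibody, which was not tested.

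Pol I makes the precursor of ribosomal RNA, normally from the ribosomal DNA in the nucleolus, and BMH-21 is a DNA-intercalating compound that inhibits it. Serine 5 of the Pol II C-terminal repeat is phosphorylated mainly around the start of transcription. Chromosome ends carry telomere repeats, and inward of these lie subtelomeres, which share blocks of sequence between chromosomes. The distal ends of 4q and 10q both carry D4Z4, a GC-rich macrosatellite whose units each hold a DUX4 reading frame. DUX4 is a homeobox transcription factor of the early embryo that most somatic cells keep silent, and its release from the 4q array is the basis of facioscapulohumeral muscular dystrophy.

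The sequences below show a gene start that the 2 ends share and the start window of DUX4 itself. They are RefSeq start-site windows on GRCh38.p14, from 250 bases before to 50 bases after the annotated start, written 5′ to 3′ with CpG dinucleotides in capitals. The peaks are on hg19, so no window is placed on a peak.
DUX4, chr4:190173524-190173823, plus strand: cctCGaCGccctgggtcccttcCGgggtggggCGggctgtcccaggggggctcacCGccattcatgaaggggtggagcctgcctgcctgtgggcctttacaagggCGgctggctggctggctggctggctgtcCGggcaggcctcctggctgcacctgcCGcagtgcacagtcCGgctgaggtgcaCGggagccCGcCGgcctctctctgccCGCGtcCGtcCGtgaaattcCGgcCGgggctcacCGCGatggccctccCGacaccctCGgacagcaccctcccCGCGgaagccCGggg
FRG2, chr4:190027207-190027506, minus strand: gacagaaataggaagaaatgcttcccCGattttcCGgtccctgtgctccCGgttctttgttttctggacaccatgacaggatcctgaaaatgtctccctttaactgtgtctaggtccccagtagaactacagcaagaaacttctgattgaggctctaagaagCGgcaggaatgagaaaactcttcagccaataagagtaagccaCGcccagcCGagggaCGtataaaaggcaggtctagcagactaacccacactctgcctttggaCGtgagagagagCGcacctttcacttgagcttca
FRG2B, chr10:133626746-133627045, minus strand: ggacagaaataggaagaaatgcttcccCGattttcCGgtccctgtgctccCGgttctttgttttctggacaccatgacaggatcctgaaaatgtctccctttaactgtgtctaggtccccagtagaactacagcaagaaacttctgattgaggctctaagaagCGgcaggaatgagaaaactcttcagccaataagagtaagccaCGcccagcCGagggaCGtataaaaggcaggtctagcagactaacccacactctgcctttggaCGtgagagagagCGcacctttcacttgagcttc
The DUX4 window held 25 CpG dinucleotides and had a GC content of 73.3%, against medians of 14 CpG dinucleotides and 58.7% over 35116 windows of the same length. FRG2, a gene of unsettled function beside the 4q array, and FRG2B, its copy on 10q, each had 9 CpG dinucleotides and GC contents of 49.0% and 49.3%. With the FRG2B window shifted by 1 base, FRG2 and FRG2B were equal at 299 of 299 positions. The telomere hexamer TTAGGG, searched on both strands, was in none of the 3 windows and in 9.05% of all windows. In the order of the RefSeq table, 4q holds FRG1, FRG2 and 10 DUX4 or DUX4-like copies that end with DUX4 itself, and 10q holds FRG2B and 14 DUX4-like copies. The likeness shown is that of FRG2 and FRG2B, and no D4Z4 sequence of 10q was compared here. Reads from near-identical copies can align to either chromosome. How such reads were assigned is not given in the sources used here, so the 2 ends are not independent observations.

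After BMH-21, both polymerases were listed in dense runs over the D4Z4 ends, where DMSO cells had few Pol I peaks and no listed Pol II peak. In the 4q window (190.95 to 191.05 Mb), BMH-21 cells had 14 Pol I peaks, against 3 in DMSO cells. There, BMH-21 cells had 12 Pol II peaks, against 0 in DMSO cells. In the 10q window (135.44 to 135.53 Mb), BMH-21 cells had 13 Pol I peaks, against 2 in DMSO cells. There, BMH-21 cells had 11 Pol II peaks, against 0 in DMSO cells.

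**Figure D1:**
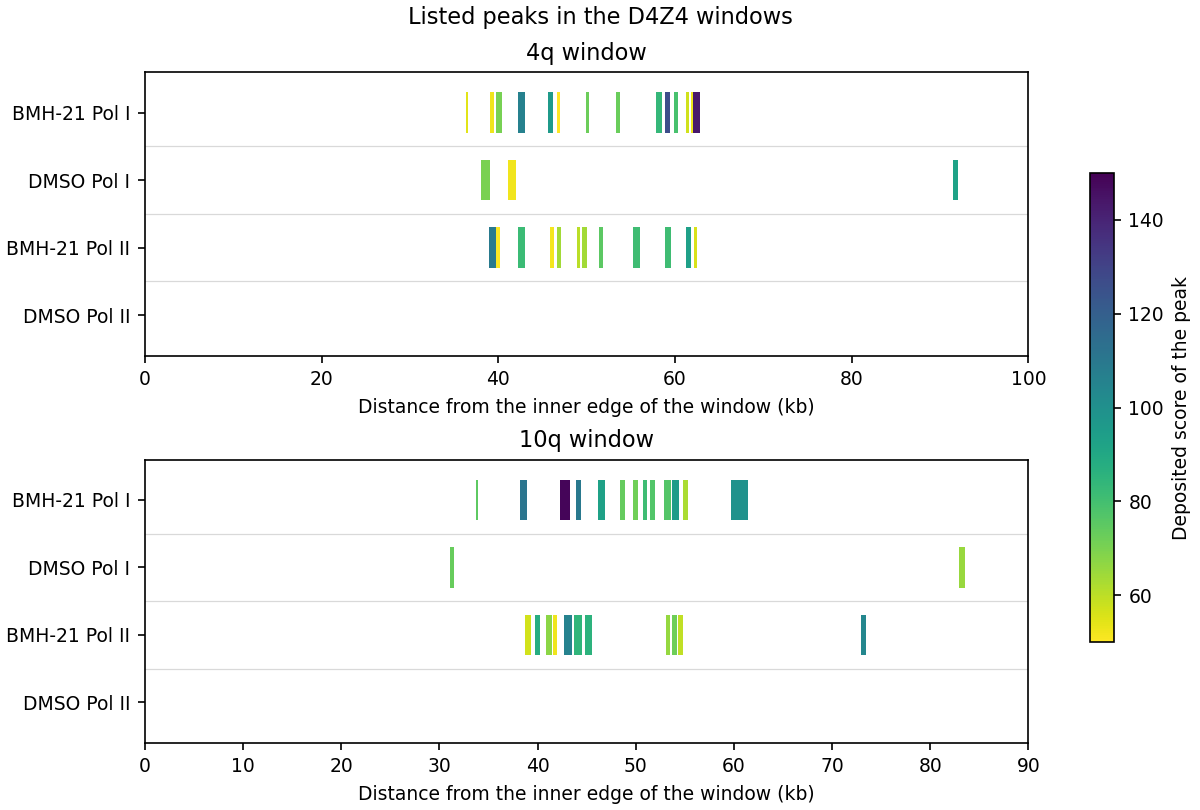
Listed peaks in the 4q window (top) and the 10q window (bottom). The x axis is the distance in kb from the inner edge of the window, each bar is 1 peak drawn to its width, each lane is 1 list, and colour is the deposited score. The BMH-21 lanes hold runs near the middle, of 27 Pol I and 23 Pol II peaks over both windows, beside 5 DMSO Pol I peaks and an empty DMSO Pol II lane in each window.

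Each peak carries a running number that increases along the chromosome, and each list skips some numbers, which bounds how many peaks could be missing from a list. At 4q, at most 6 DMSO Pol I numbers and at most 3 DMSO Pol II numbers could lie in the window, beside the 14 and 12 peaks listed after BMH-21. At 10q the bounds were at most 4 DMSO Pol I numbers and at most 1 DMSO Pol II number, beside 13 and 11 listed after BMH-21. For each antibody and window, the listed BMH-21 peaks thus exceeded every number the DMSO list could have assigned there. The 3 DMSO Pol I peaks of the 4q window were numbered 38895, 38896 and 38897, so no DMSO Pol I number was skipped between them. The BMH-21 peaks of 4q ran without a skip as well, from 10921 to 10934 for Pol I and from 36466 to 36477 for Pol II.

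At 4q, the BMH-21 Pol I run extended over 26.5 kb, chr4:190986312-191012763, and covered 6.72% of the window. From the inner to the outer side its 14 peaks scored 54.4, 52.5, 70.7, 107, 96.0, 50.2, 72.4, 73.0, 83.6, 126, 79.3, 57.3, 52.9 and 144. The outermost peak, chr4:191012114-191012763, thus had the highest score of the run, and the peaks beside it were among the lowest. The BMH-21 Pol II run extended over 23.5 kb, chr4:190988984-191012521, with scores of 109, 50.7, 81.9, 51.9, 64.0, 60.3, 63.9, 75.0, 81.1, 81.2, 93.6 and 56.0 in the same order. Here the innermost peak, chr4:190988984-190989715, had the highest score. The DMSO Pol I peaks were chr4:190987981-190989073 with a score of 70.1, chr4:190991106-190991960 with 52.3, and chr4:191041452-191042001 with 92.3. The first and second of these lay 19 and 256 bp from the nearest BMH-21 Pol I peak without touching it. The last lay 28688 bp beyond the BMH-21 run and was the outermost listed peak of the chromosome.

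At 10q, the BMH-21 Pol I run extended over 27.7 kb, chr10:135473732-135501430, and covered 10.0% of the window. From the inner to the outer side its 13 peaks scored 74.9, 111, 149, 109, 92.7, 73.5, 71.6, 80.9, 77.2, 76.7, 95.3, 62.9 and 99.3. The third, chr10:135482335-135483326, had the highest score of any BMH-21 Pol I peak at a chromosome end, and the last, chr10:135499710-135501430, was the widest at 1721 bp. The BMH-21 Pol II peaks extended over 34.9 kb, chr10:135478657-135513532, with scores of 56.9, 87.8, 67.3, 52.5, 106, 84.5, 85.6, 66.0, 72.0, 59.4 and 104. They fell into a group of 7 peaks, a group of 3 and a single outer peak, chr10:135512979-135513532. The DMSO Pol I peaks, chr10:135471102-135471509 with a score of 73.1 and chr10:135522931-135523525 with 65.3, flanked the BMH-21 run at gaps of 2222 and 21500 bp. Median spacing between neighbouring peak centres after BMH-21 was 1404.5 bp for Pol I and 2247 bp for Pol II at 4q, and 1388 bp for Pol I and 1083 bp for Pol II at 10q.

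Within the runs, many Pol I and Pol II peaks overlapped. At 4q, 9 of the 14 Pol I peaks and 9 of the 12 Pol II peaks listed after BMH-21 overlapped a peak of the other polymerase by at least 1 bp. At 10q, 6 of the 13 Pol I peaks and 6 of the 11 Pol II peaks did. Over all autosomes after BMH-21, such overlaps involved 9.64% of Pol I peaks and 1.60% of Pol II peaks. Peaks in the runs were far denser than over the autosomes, so these shares are not a matched background. How much overlap the density of the runs alone would give was not tested. None of the DMSO Pol I peaks could overlap a DMSO Pol II peak there, since that list had none. Across treatments, the DMSO Pol I peak chr4:190987981-190989073 overlapped the BMH-21 Pol II peak chr4:190988984-190989715. Among BMH-21 pairs, the 5 with the highest Pol I score at any end were all in these windows. They were chr10:135482335-135483326 (Pol I) with chr10:135482702-135483514 (Pol II), chr4:191012114-191012763 with chr4:191012182-191012521, and chr4:191008886-191009395 with chr4:191008882-191009485. The other two were chr10:135478210-135478936 (Pol I) with chr10:135478657-135479268 (Pol II), and chr10:135483883-135484403 with chr10:135483656-135484501.

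The D4Z4 windows made up 0.19 Mb in all and held a large part of the BMH-21 Pol I peaks at chromosome ends. The 27 BMH-21 Pol I peaks were 36.5% [25.6 to 48.5] of the 74 at ends, against 5 of 886 (0.564%) for DMSO Pol I. As a share of the whole autosomal list they were 1.46% [0.966 to 2.12], against 0.012% for DMSO Pol I. The 23 BMH-21 Pol II peaks were 5.99% [3.83 to 8.85] of the 384 at ends and 0.205% of the autosomal list. For DMSO Pol II the count was 0 of 28182, with an exact interval of 0 to 0.0131%. Peaks per Mb in the windows were 142 for BMH-21 Pol I against 26.3 for DMSO Pol I, and 121 for BMH-21 Pol II against 0 for DMSO Pol II.

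Outside the windows, the listed peaks in the rest of the same 2 ends had the opposite order between treatments for both polymerases. Skipped numbers were not bounded for this part alone, so the order holds for listed peaks only. At 4q, BMH-21 cells had 2 Pol I peaks, against 10 in DMSO cells, and 1 Pol II peak, against 3 in DMSO cells. At 10q, BMH-21 cells had 1 Pol I peak, against 17 in DMSO cells, and 5 Pol II peaks, against 12 in DMSO cells. Of these few BMH-21 peaks, 1 pair at each end overlapped. At 4q it was the Pol I peak chr4:190943136-190943998 with the Pol II peak chr4:190942794-190943940, inward of the D4Z4 window. At 10q it was the Pol I peak chr10:135143775-135144095 with the Pol II peak chr10:135143859-135144116, 379 kb from the end.

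All 4 lists were denser at the 39 ends than on the rest of the autosomes. The ends made up 39 Mb, or 1.45% of the 2691.45 Mb analysed, which leaves out the longest stretch without peaks on each chromosome. They held 74 of 1847 autosomal BMH-21 Pol I peaks (4.01% [3.16 to 5.00]), against 886 of 41541 DMSO Pol I peaks (2.13% [1.996 to 2.28]). They held 384 of 11221 BMH-21 Pol II peaks (3.42% [3.09 to 3.78]), against 1133 of 28182 DMSO Pol II peaks (4.02% [3.79 to 4.26]). The ends thus took the smallest share in the DMSO Pol I list.

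Expressed as density, BMH-21 Pol I had 1.90 peaks per Mb at the ends and 0.668 on the rest, a ratio of 2.84, which was 4.28 with windows of 0.5 Mb. DMSO Pol I had 22.7 at the ends and 15.3 on the rest, a ratio of 1.48. BMH-21 Pol II had 9.85 at the ends and 4.09 on the rest, a ratio of 2.41, and DMSO Pol II had 29.1 and 10.2, a ratio of 2.85. Without 4q and 10q the ratio was 1.78 for BMH-21 Pol I and was 1.51 for DMSO Pol I, 2.35 for BMH-21 Pol II and 2.96 for DMSO Pol II. The BMH-21 Pol I ratio was thus the one of the 4 that dropped most without them. Subtelomeres and the gene-rich sequence inward of them were not separated here.

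The number of peaks per end ranged widely. BMH-21 Pol I had a median of 1 peak per end (0 to 16), against a median of 20 (2 to 52) for DMSO Pol I. BMH-21 Pol II had a median of 9 (0 to 28), against 22 (0 to 167) for DMSO Pol II. For BMH-21 Pol I, 17 ends had no listed peak (1p, 1q, 2p, 2q, 3p, 3q, 4p, 5p, 6p, 6q, 7q, 9p, 10p, 12p, 14q, 15q and 18q). Its leading ends were 4q with 16, 10q with 14 and 19q with 5, together 47.3% of its end peaks. DMSO Pol I was spread more evenly, with 52 at 16p, 40 at 19q and 37 at 8q, together 14.6%. BMH-21 Pol II led at 19q with 28, 11p with 23 and 16q with 22, together 19.0%, and had none at 2p and 3p. DMSO Pol II led at 16q with 167, 11p with 71 and 19q with 66, together 26.8%, and had none at 3p. The end 3p was poor in every list, and its first listed peak of any list lay 422 kb from the start of the chromosome.

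**Figure D2:**
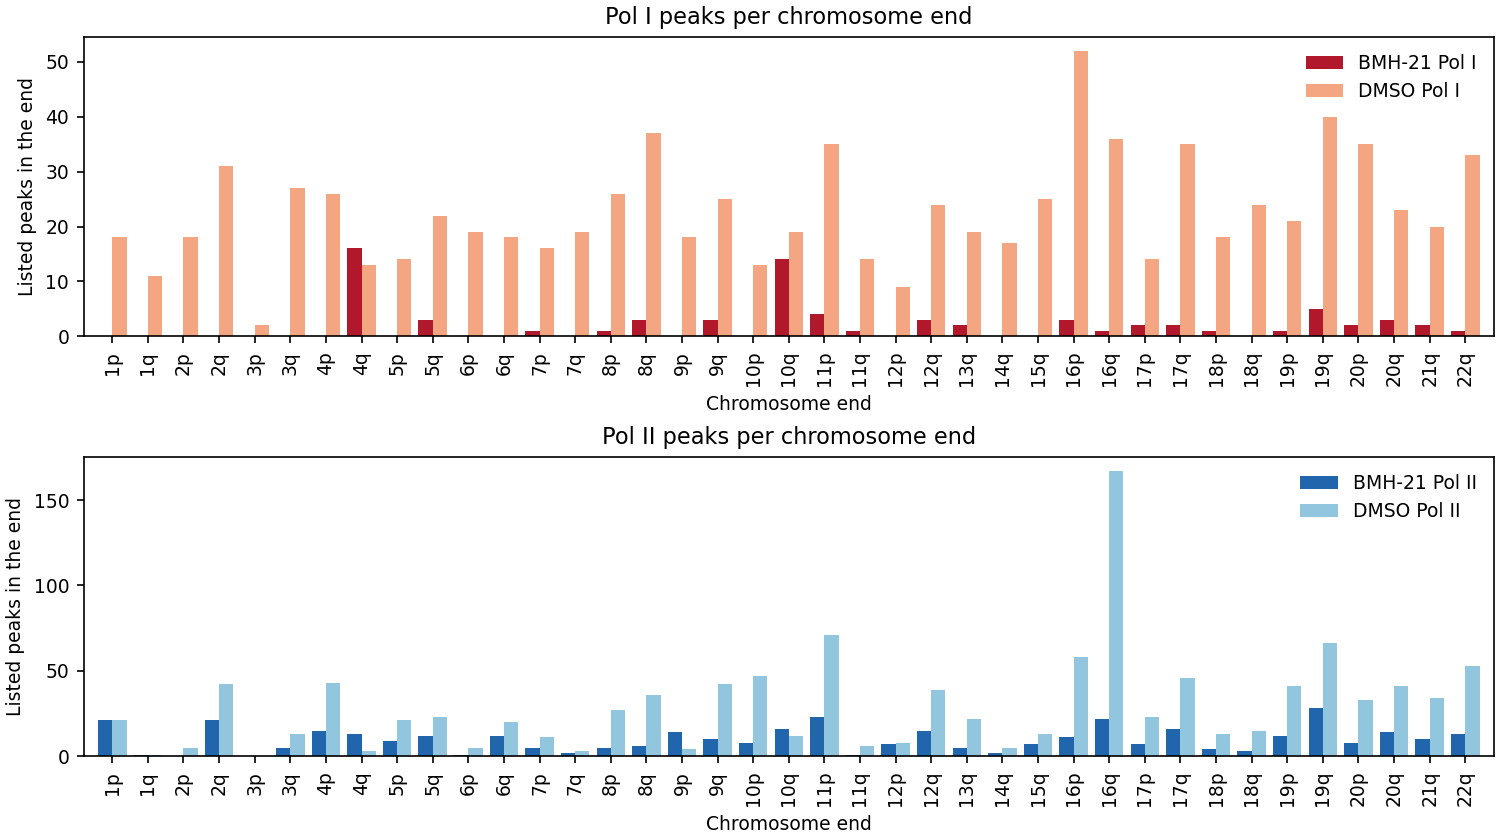
Listed peaks in each of the 39 chromosome ends, for Pol I (top) and Pol II (bottom). The y axis counts peaks, and each pair of bars is BMH-21 and DMSO. BMH-21 Pol I stands above DMSO only at 4q (16 against 13), and DMSO Pol II at 16q reaches 167.

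BMH-21 cells had more Pol I peaks than DMSO cells at 1 end, 4q, and fewer at the other 38. Allowing for skipped numbers, 17 of these 38 ends still had more listed DMSO Pol I peaks than BMH-21 Pol I numbers could lie there. For the whole 4q end the order was not fixed in this way, since the 16 BMH-21 peaks stood beside at most 17 DMSO numbers. For Pol II, BMH-21 cells had more peaks at 4q (13 against 3 in DMSO cells), 9p (14 against 4) and 10q (16 against 12), the same number at 3 ends and fewer at 33. Of the 3 ends with more, 4q kept its order at any number of unlisted peaks, with 13 BMH-21 Pol II peaks listed beside at most 9 DMSO Pol II numbers. Of the 33, 10p and 16q kept theirs.

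Set against the rest of the autosomes, the ratio of BMH-21 to DMSO Pol I peaks was higher at the ends. It was 74 to 886, or 0.0835 [0.0650 to 0.106], at the ends and 0.0436 [0.0416 to 0.0457] on the rest. The 4q and 10q ends alone gave 30 to 32, or 0.9375 [0.550 to 1.59], and the other ends 44 to 854, or 0.0515 [0.0372 to 0.0698]. The interval of the other ends included the ratio on the rest, so no difference from the rest could be read from the other ends. Right ends gave 0.111 and left ends 0.0424, and right ends without 4q and 10q gave 0.058.

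For Pol II the ratio over all ends was below the rest with 1 Mb windows and above it with 0.5 Mb windows. It was 384 to 1133, or 0.339 [0.301 to 0.381], at the ends, and 0.401 [0.392 to 0.410] on the rest. The 4q and 10q ends gave 29 to 15, or 1.93 [1.00 to 3.88], and the other ends 0.318 [0.281 to 0.358]. Without 16q, where DMSO cells had 167 Pol II peaks, the ratio at the ends was 0.375 [0.331 to 0.423], an interval that includes the ratio on the rest. With windows of 0.5 Mb the ratio was 0.499 [0.422 to 0.589] at the ends and 0.397 on the rest. These windows hold the 4q and 10q runs, and their ratio without 4q and 10q was not computed. The higher value is thus not shown for ends in general. Left ends of 1 Mb gave 0.348 and right ends 0.333.

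The balance between the polymerases differed between ends and the rest in DMSO cells. After BMH-21 the ends had 0.193 [0.148 to 0.248] Pol I peaks for each Pol II peak, and the rest 0.164 [0.156 to 0.172], so the intervals overlapped. Without 4q and 10q the BMH-21 value was 0.124 [0.0885 to 0.170], below the rest in place of above it, and the intervals again overlapped. In DMSO cells the ends had 0.782 [0.715 to 0.855] Pol I peaks for each Pol II peak, against 1.50 [1.48 to 1.53] on the rest. Without 16q the DMSO value at the ends was 0.880 [0.801 to 0.966], still below the rest. After BMH-21, 1 end had more Pol I than Pol II peaks and 35 had fewer. In DMSO cells 18 ends had more Pol I than Pol II peaks and 21 had fewer.

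Away from 4q and 10q, Pol I and Pol II peaks after BMH-21 did not coincide at any end. Of the 74 BMH-21 Pol I end peaks, 17 (23.0% [14.0 to 34.2]) overlapped a BMH-21 Pol II peak, beside 9.64% of all autosomal BMH-21 Pol I peaks. All 17 were at 4q and 10q, where they were 56.7% [37.4 to 74.5] of 30. The other ends had 0 of 44, with an exact interval of 0 to 8.04%, against 9.08% [7.78 to 10.5] on the rest of the autosomes, so the intervals overlapped. Of the 384 BMH-21 Pol II end peaks, 17 (4.43% [2.60 to 6.99]) overlapped a BMH-21 Pol I peak, beside 1.60% of all autosomal BMH-21 Pol II peaks. Again all were at 4q and 10q, where they were 58.6% of 29. The other ends had 0 of 355, with an exact interval of 0 to 1.03%, against 1.50% [1.28 to 1.75] on the rest.

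In DMSO cells overlaps were spread over the ends. Of the 886 DMSO Pol I end peaks, 134 (15.1% [12.8 to 17.7]) overlapped a DMSO Pol II peak, a share near the 14.0% of all autosomal DMSO Pol I peaks. Of the 1133 DMSO Pol II end peaks, 129 (11.4% [9.59 to 13.4]) overlapped a DMSO Pol I peak, below the 20.5% of all autosomal DMSO Pol II peaks and 12.5% [10.5 to 14.8] without 16q. At 4q and 10q, 2 of 32 DMSO Pol I peaks and 2 of 15 DMSO Pol II peaks overlapped the other polymerase. The pair with the highest Pol I score lay at 9q, the Pol I peak chr9:140639199-140639873 (score 414) with the Pol II peak chr9:140639153-140639811 (score 197). The next were at 19p (chr19:940449-941349, score 407), 1p (chr1:868366-868968, score 399.6), 18p (chr18:449168-449835, score 347) and 9q (chr9:140149435-140150039, score 342), by their Pol I peaks.

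**Figure D3:**
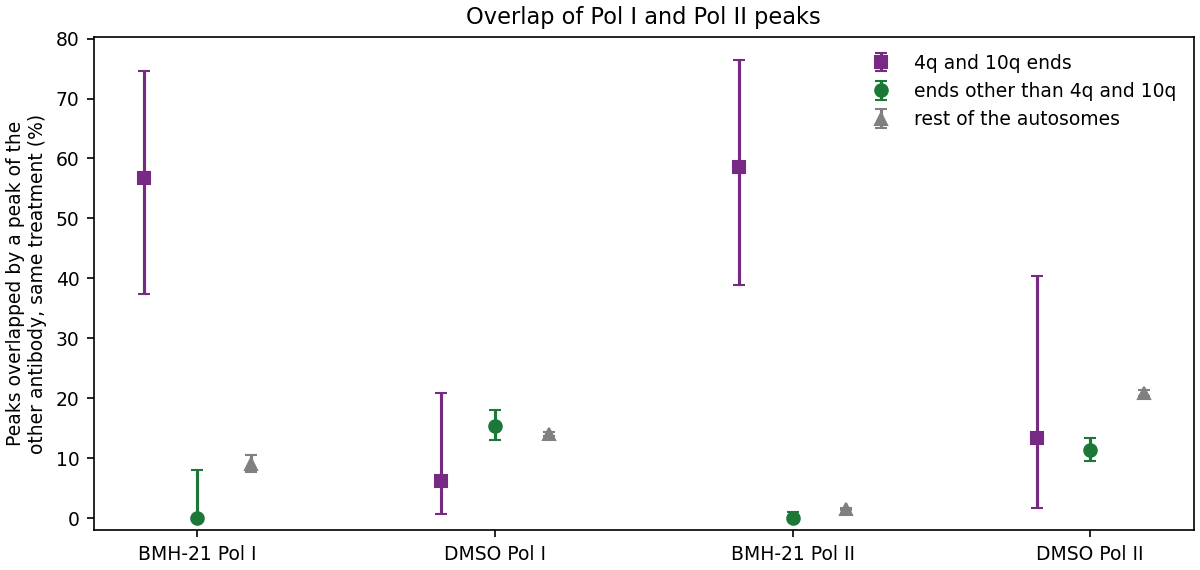
Share of peaks in each list that overlap a peak of the other polymerase in the same treatment, in percent. Squares are the 4q and 10q ends, circles the other ends and triangles the rest of the autosomes, and bars are exact 95% intervals over peaks. After BMH-21, 56.7% of Pol I and 58.6% of Pol II peaks at 4q and 10q overlap, and 0 at the other ends.

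End peaks after BMH-21 could also lie close to a DMSO peak of the same antibody without touching it. Within 1000 bp of a DMSO Pol I peak lay 12 of 74 BMH-21 Pol I end peaks (16.2% [8.67 to 26.6]), beside 12.8% over all autosomes. Within 1000 bp of a DMSO Pol II peak lay 106 of 384 BMH-21 Pol II end peaks (27.6% [23.2 to 32.4]), beside 19.4% over all autosomes. The Pol I share was near its background and the Pol II share above it. Across antibodies, 19 of 886 DMSO Pol I end peaks (2.14%) overlapped a BMH-21 Pol II peak, near the 2.41% on the rest of the autosomes.

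Along the outermost 1 Mb, the step next to the end held the most BMH-21 peaks of both polymerases over all ends, and without 4q and 10q it was no longer the fullest for Pol II. The outermost 0.1 Mb held 36 of 74 BMH-21 Pol I peaks (48.6% [36.9 to 60.6]), against 74 of 886 DMSO Pol I peaks (8.35%). Each further step of 0.1 Mb held 2 to 6 BMH-21 Pol I and 80 to 110 DMSO Pol I peaks. Without 4q and 10q the outermost share was 8 of 44 BMH-21 Pol I peaks (18.2% [8.19 to 32.7]), against 69 of 854 DMSO Pol I peaks (8.08% [6.34 to 10.1]). The DMSO value lay just below the BMH-21 interval, and the intervals overlapped. The outermost 0.1 Mb held 69 of 384 BMH-21 Pol II peaks (18.0% [14.3 to 22.2]), against 51 of 1133 DMSO Pol II peaks (4.50%). Without 4q and 10q it held 45 of 355 BMH-21 Pol II peaks (12.7% [9.40 to 16.6]), against 51 of 1118 DMSO Pol II peaks (4.56%). The further steps then held 20 to 46 BMH-21 Pol II and 46 to 151 DMSO Pol II peaks, so the outermost step was not the fullest for BMH-21 Pol II and was among the least filled for DMSO Pol II. Distances at right ends are from the last listed peak of any list, which need not be at the telomere. Each of the 22 right ends thus has a peak at distance 0 by construction. That peak enters the outermost step of its list, and the outermost 30 kb used below. Those at left ends are from the first base, and any stretch there without a listed peak in any list counts as distance.

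**Figure D4:**
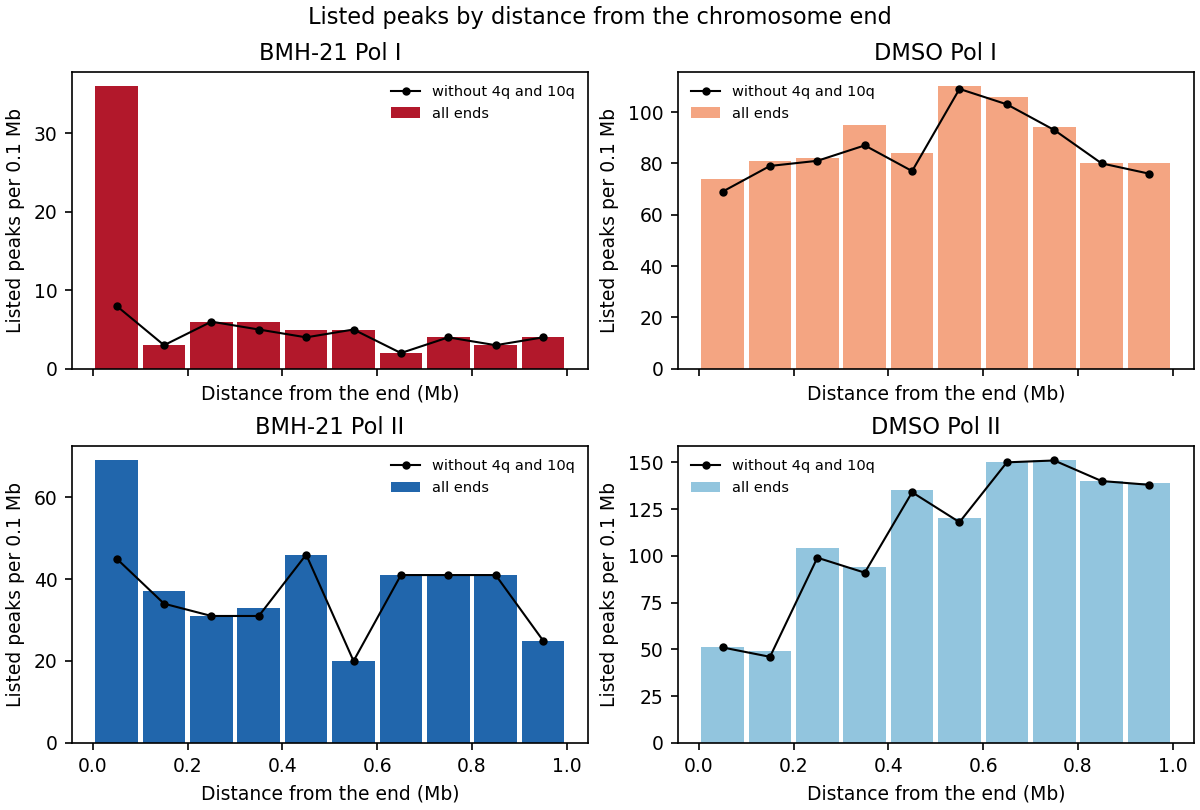
Listed peaks by distance from the chromosome end, in steps of 0.1 Mb, for each list. Bars are all 39 ends and points the ends without 4q and 10q, and the y axes differ between panels. In the BMH-21 panels the outermost step holds 36 Pol I and 69 Pol II peaks, and 8 and 45 without 4q and 10q.

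The ends 1p, 9p and 15q carried much of the outermost BMH-21 Pol II signal, a set chosen after the values were seen. In the outermost 30 kb they had 8, 8 and 4 BMH-21 Pol II peaks, against 2, 1 and 1 DMSO Pol II peaks. Together these were 20 of the 31 BMH-21 Pol II peaks in the outermost 30 kb of all ends, against 4 of the 15 DMSO Pol II peaks. Ends whose first listed peak lay farther in could not add to either count. Over the whole 1 Mb, BMH-21 and DMSO cells had 21 and 21 Pol II peaks at 1p, 14 and 4 at 9p, and 7 and 13 at 15q. At most 44, 23 and 28 DMSO Pol II numbers could lie in these whole ends. Skipped numbers were not bounded for the outermost 30 kb, so the order there holds for listed peaks only. In the outermost 30 kb, 1p, 9p and 15q had no BMH-21 Pol I peak, against 0, 3 and 1 DMSO Pol I peaks. At 1p the BMH-21 Pol II peaks ran from chr1:11232-11458 to chr1:27714-28312 with scores of 50.7 to 115, and at 9p from chr9:12986-13341 to chr9:27174-27452 with scores of 50.3 to 92.8. At 15q they ran from chr15:102507709-102507987 to chr15:102519695-102519991 with scores of 55.3 to 90.5. Copies of a duplicated subtelomeric block with WASH-family and DDX11L genes lie at several chromosome ends. RefSeq lists WASH7P and DDX11L1 on chromosome 1, WASHC1 and DDX11L5 on chromosome 9, and WASH3P and DDX11L9 on chromosome 15. It also lists WASH2P and DDX11L2 on chromosome 2, WASH8P and DDX11L8 on chromosome 12, and WASH4P and DDX11L10 on chromosome 16. Only the chromosome of each gene was read, so none is placed at an end here. At 12p and 16p the first listed peak of any list lay 85.9 and 60.8 kb from the first base. The outermost 30 kb was thus empty in every list and could not show whether the pattern held there. In the outermost 0.1 Mb, 12p and 16p had 2 and 1 BMH-21 Pol II peaks, against 2 and 2 DMSO Pol II peaks. As at D4Z4, reads from such copies may align to more than 1 end.

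Within each list, end peaks scored close to the rest. The median score of BMH-21 Pol I peaks was 63.5 [60.0 to 72.7] at the ends and 60.2 on the rest, and that of DMSO Pol I peaks was 103 [97.9 to 107] and 98.4. BMH-21 Pol II end peaks were slightly lower, with 57.9 [56.6 to 59.3] at the ends and 60.5 on the rest, and DMSO Pol II end peaks slightly higher, with 84.9 [81.3 to 87.8] and 80.7. Scores under 100 made up 90.5% of BMH-21 Pol I peaks at the ends and 83.6% on the rest, and 93.75% of BMH-21 Pol II peaks at the ends and 86.4% on the rest. Median width was 276 bp at the ends and 214 bp on the rest for BMH-21 Pol I, and 475.5 and 466 bp for DMSO Pol I. For Pol II it was 247 and 270 bp after BMH-21, and 498 and 499 bp in DMSO cells. Without 4q and 10q the BMH-21 Pol I medians at the ends were 212.5 bp and a score of 59.7, while those in the D4Z4 windows were 476 bp and 72.7 at 4q, and 591 bp and 80.9 at 10q. End peaks covered 28.5 kb for BMH-21 Pol I against 470 kb for DMSO Pol I, and 113 kb for BMH-21 Pol II against 666 kb for DMSO Pol II.

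The highest-scored end peaks of the DMSO lists lay away from D4Z4. For BMH-21 Pol I, 4 of the leading 5 were in the D4Z4 windows, and the other was chr20:62596506-62596823 at 20q, with a score of 112. For DMSO Pol I the leading peak was chr22:50967999-50970828 at 22q, with a score of 1036. Next came chr2:242832872-242833581 at 2q (758), chr12:133404826-133405907 at 12q (719), chr20:62338652-62339646 at 20q (621) and chr19:58986884-58988186 at 19q (611). For BMH-21 Pol II they were chr11:502467-503044 at 11p (201), chr17:51192-51671 at 17p (160.5), chr4:52854-54119 at 4p (156), chr6:170886992-170887540 at 6q (138.11) and the 10q peak at chr10:135143859-135144116 (137.83) already named. For DMSO Pol II they were chr4:956109-958191 at 4p (805), chr20:414881-416723 at 20p (774), chr19:661465-663764 at 19p (756), chr11:560415-562028 at 11p (713) and chr6:291586-292838 at 6p (694). The widest DMSO Pol II end peak, chr21:47866078-47868654 at 21q, spanned 2577 bp. The widest DMSO Pol I end peak, chr4:51578-57520 at 4p, spanned 5943 bp at a score of 104, and the widest BMH-21 Pol II end peak, chr4:52854-54119, lay inside its bounds.

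The share of peak numbers that is listed at the ends depended on how it was counted. Between the lowest and highest listed number of each end, 54.0% [44.9 to 63.0] of BMH-21 Pol I numbers were listed, against 12.1% on the rest. This count takes in 67 of the 74 peaks and 124 numbers, leaves out the 17 empty ends and those with 1 peak, and was 41.1% without 4q and 10q. Over all 39 ends at most 1113 BMH-21 Pol I numbers could lie, which puts the listed share at 6.65% or more, so it is not shown to be above the rest. Counted within ends, the other values were 80.2% [77.7 to 82.5] at the ends and 76.6% on the rest for DMSO Pol I, and 23.6% [21.5 to 25.7] and 23.0% for BMH-21 Pol II. For DMSO Pol II they were 59.3% [57.0 to 61.5] and 51.9%. Why numbers are skipped is not given in the sources used here.

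At the limit of the rule, the farthest member of an end lay 405 to 999.8 kb from it, and the nearest peak left out lay 1000.2 to 1315 kb from it. Just inside were the DMSO Pol I peaks chr4:190042354-190042910 at 4q, with a score of 215, and chr17:80196755-80197132 at 17q, with a score of 85.6.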

How the data were processed

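Chromatin immunoprecipitation with sequencing gave 1 peak list for each of 4 libraries, and the group of each library came from its title. The build was hg19 and the tools Bowtie2 2.2.1, CASAVA 1.8.2 and deepTools 3.5.4, per the submitters' processing notes. Deposited peaks are named after the caller MACS. Its version and settings were not given in the sources used here. The authors' deposited score per peak stands in a column headed as a p-value, starts at 50, and looks transformed on a scale that is not stated. A short library or weak enrichment shortens such a list, and no adjustment was possible.

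Zero-based starts were converted to the first base. The longest stretch without peaks was left out of each chromosome's span. Overlap meant 1 bp or more. Shares, also those with a count of 0, have exact Clopper-Pearson 95% intervals. Ratios have the interval of the matching share, and medians an exact interval from order statistics. Peak numbers never stepped down within a list, which bounds the unlisted peaks of a region.

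Members and lists were chosen with earlier results of these data known. Named regions were every peak in the D4Z4 windows, and per list the 5 highest-scored and the widest end peaks, the 3 fullest and the empty ends, and the 5 overlap pairs per treatment with the highest Pol I score. RefSeq tables were on GRCh38.p14, so no gene was placed on a peak and the planned gene list was not counted. The counting code was tested on simulated data. Alternatives changed the window, the ends, the score and width minimum, the unit counted and the overlap distance. Python 3.11.15, NumPy 2.4.6, pandas 2.3.3, SciPy 1.17.1 and matplotlib 3.10.9 were used.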

Additional observations from a re-analysis of the deposited data

How the results depend on the processing

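Of 188 alternative values of 34 results, 144 were judged by the 95% interval of the reported value and 44, which have none, by a factor of 1.5. By these rules 134 did not move and 54 did. Shares at ends move with the window by construction. With windows of 0.5 Mb they were 3.03% for BMH-21 Pol I, 1.00% for DMSO Pol I, 1.92% for BMH-21 Pol II and 1.54% for DMSO Pol II, and with 2 Mb 6.50%, 4.14%, 5.61% and 7.69% in the same order. At 0.5 Mb, BMH-21 Pol II had a median width of 257.5 bp, an overlap of 7.87% and a listed share of 33.7%, and DMSO Pol II a median score of 80.6. The BMH-21 to DMSO ratios at 0.5 Mb were 0.135 for Pol I and 0.499 for Pol II. The second was above the 0.397 on the rest, with 4q and 10q included. The density ratio of BMH-21 Pol I was then 4.28. At 2 Mb the listed shares were 41.7% for BMH-21 Pol I and 19.4% for BMH-21 Pol II, and the Pol II ratio was 0.290. Without 4q and 10q, BMH-21 Pol I had a share of 2.42%, a median score of 59.7, a median width of 212.5 bp, an overlap of 0 and a listed share of 41.1%, BMH-21 Pol II had an overlap of 0, and the Pol I ratio was 0.0515. Without the end with most peaks, the BMH-21 Pol I overlap was 12.1% and the DMSO Pol II share 3.45%. With scores at or above the DMSO median, which applies 1 scale to both lists, shares were 2.94% for BMH-21 Pol I, 1.92% for BMH-21 Pol II and 4.29% for DMSO Pol II. Overlaps were then 44.4% for BMH-21 Pol I, 10.7% for DMSO Pol I, 8.70% for BMH-21 Pol II and 8.11% for DMSO Pol II, and the BMH-21 to DMSO ratios 0.0192 for Pol I and 0.0762 for Pol II. The D4Z4 windows then held 3 Pol I and 5 Pol II peaks of BMH-21 cells and 0 Pol I peaks of DMSO cells at 4q, and 4, 5 and 0 at 10q. With widths of at least 300 bp, shares were 8.82% for BMH-21 Pol I and 2.21% for BMH-21 Pol II, their overlaps 42.9% and 15.6%, and the ratios 0.0434 for Pol I and 0.0887 for Pol II. By covered length, the BMH-21 Pol II share was 2.35% and the ratios 0.0607 for Pol I and 0.169 for Pol II. Counting peaks within 1000 bp, overlaps were 22.9% for DMSO Pol I and 19.1% for DMSO Pol II. The causes were not tested. No paired analysis was possible because each group had 1 library. Unknown read depth and the starting score of 50 limit every count.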
